A study of Mus musculus with 16 samples.

Results

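The mitochondrial genome encodes 37 of the 55487 genes counted in these hippocampal libraries, taken as every gene whose symbol starts with mt-. They are 13 protein-coding genes, 2 rRNA genes and 22 tRNA genes. Females were perfused with PBS at 40 weeks of age (9.5 months in the treatment protocol), and RNA was taken from the right hippocampus. The 4 groups of 4 libraries combine the PS19 tau transgene and loss of Ch25h. TCKO mice carried the PS19 transgene without Ch25h, T mice carried the transgene with Ch25h, CKO mice lacked Ch25h without the transgene, and WT mice had neither change. The PS19 transgene is a 1N4R human tau (MAPT) with the P301S mutation, overexpressed from the PrP (prion protein) promoter. Ch25h encodes cholesterol 25-hydroxylase, which makes an oxysterol. The labels number the replicates without stating that each is a different animal, so the p-values reflect only how much these libraries vary. In bulk tissue, fewer cells of a type and less RNA per cell cannot be told apart.

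Mitochondrial DNA is a small circle whose strands are each transcribed into long precursors. Enzymes cut the tRNAs out of these precursors, and this frees the mRNAs and rRNAs that lie between them. The mRNAs encode subunits of complex I (the mt-Nd genes), complex III (mt-Cytb), complex IV (mt-Co1 to mt-Co3) and ATP synthase (mt-Atp6 and mt-Atp8), while all other subunits of the respiratory chain, complex II included, come from nuclear genes. In neurons these complexes supply much of the ATP for ion pumping and synaptic transmission. The libraries were primed with oligo-dT, which binds poly(A) tails. Most mitochondrial mRNAs carry such a tail, tRNAs do not in their mature form, and in human cells ND6 mRNA lacks one. The labels do not state whether counting used strand, so sense and antisense reads of a mitochondrial gene cannot be told apart.

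Library depth ran from 24057188 to 31359268 counted reads in TCKO, 26247317 to 32295230 in T, 15064309 to 26417541 in CKO and 28878646 to 34348284 in WT. Ch25h was counted 0 to 1 times per library in TCKO and 133 to 300 times in T, and 0 to 2 times in CKO against 18 to 40 times in WT. Mapt, the tau gene, stood at 812 to 1138 CPM in TCKO, 665 to 869 CPM in T, 363 to 386 CPM in CKO and 329 to 359.7 CPM in WT. CPM are counts scaled to one library size, with TMM factors that correct for composition. T replicate 4 and WT replicate 1 stood apart by their 14 choroid plexus markers, whose sum was 11663 and 11618 CPM there and at most 1196 CPM in the other libraries. Hippocampal cell types were represented by their markers: all 10 excitatory neuron markers and all 7 astrocyte markers were detected.

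Along the genome, 28 of the 37 genes lie on the plus strand of the reference and 9 on the minus strand, namely mt-Nd6 and 8 tRNA genes. The protein-coding genes span 204 to 1824 bases and the tRNA genes 59 to 75 bases. The genes are packed so tightly that some of them share bases, and 2 such overlaps involve the mRNAs on which the results below turn. They are printed here from the GENCODE M21 transcripts on build GRCm38, 5′ to 3′ on the plus strand, with the shared bases in capitals. The first window is chrM:7907-7989, where mt-Atp8 and mt-Atp6 share 43 bases, and the second is chrM:10147-10193, where mt-Nd4l and mt-Nd4 share 7 bases.
mt-Atp8/mt-Atp6: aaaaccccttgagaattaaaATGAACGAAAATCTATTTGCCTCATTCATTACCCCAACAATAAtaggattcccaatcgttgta
mt-Nd4l/mt-Nd4: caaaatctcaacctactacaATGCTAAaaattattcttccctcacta
Each pair is known to be carried on 1 bicistronic mRNA, so the level of mt-Atp8 and of mt-Nd4l here is the estimate of a short reading frame within a longer molecule. mt-Nd5 and mt-Nd6 also share 14 bases, on opposite strands.

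The annotated ends of the reading frames show some of the places where poly(A) tails matter for translation. Others may be missed, since mt-Nd1 and mt-Nd2 each share 2 bases with the following tRNA gene, and mt-Atp6 shares 1 with mt-Co3. In 3 of the 13 protein-coding genes the annotated length is not a multiple of 3, and the last codon is a single T that needs adenines from the tail to become a stop codon. The last 24 bases of these genes, of mt-Co1 with its complete stop codon and of the minus-strand gene mt-Nd6 are given with the stop codon, or its first base, in capitals (chrM:6849-6872, chrM:9367-9390, chrM:11521-11544 and chrM:15265-15288 on the plus strand, and chrM:13552-13575 on the minus strand, GRCm38).
mt-Co1: ccaacctatgtaaaagtaaaaTAA
mt-Co3: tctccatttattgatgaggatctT
mt-Nd4: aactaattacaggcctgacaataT
mt-Cytb: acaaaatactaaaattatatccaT
mt-Nd6: attatcgagattactcgagatTAA

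Levels per length were compared by the authors' TPM (a level divided by effective length and scaled to the same total in each library) over all 16 libraries. mt-Co3, a core subunit of complex IV, had the highest level at 28866 ± 2986 TPM (mean ± SD, n = 16 libraries), and mt-Atp6, part of the proton channel of ATP synthase, followed at 20539.8 ± 1637 TPM. In these deposited values mt-Co3 exceeded mt-Atp6, and mt-Atp6 exceeded mt-Co2, in 16 of 16 libraries. Reads counted at near-identical nuclear copies, described below, are left out of them. The copy held 37.0 to 41.8% of the reads of its pair for mt-Atp6 and 12.6 to 18.7% for mt-Co3. The orders given here may therefore depend on that assignment, which was not tested for TPM. mt-Co2 (14422 ± 1174 TPM) and mt-Rnr2, the large rRNA (13744 ± 1543 TPM), kept their order in 12 libraries. Below them, mt-Cytb (12359 ± 1147 TPM), mt-Atp8 (12262 ± 2007 TPM) and mt-Co1 (11943 ± 1624 TPM) could not be ordered, since mt-Cytb exceeded mt-Atp8 in 10 libraries and mt-Atp8 exceeded mt-Co1 in 8. The complex I mRNAs came lower: mt-Nd1 at 9464 ± 771 TPM exceeded mt-Nd4 at 5303 ± 399.9 TPM in 16 of 16 libraries. mt-Rnr1, the small rRNA, and mt-Nd2 changed places in 8 of 16 libraries, at 3320.3 ± 487 TPM and 3184 ± 222 TPM. mt-Nd3 averaged 2597 ± 335 TPM, while mt-Nd5 and mt-Nd4l, at 2216 ± 251 TPM and 2154 ± 282 TPM, were in that order in 7 libraries. mt-Nd6, the protein-coding gene on the minus strand, was lowest with 1798 ± 249 TPM, and ranged from 1139 to 2135 TPM. The tRNA genes stayed below these levels in their means, with mt-Tq first at 1315 TPM on average. The effective length of mt-Tq was 7.65 to 8.67 bases across libraries, so its TPM rests on few reads divided by a very small length.

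Mitochondrial genes took a smaller mean share of all gene reads in both groups without Ch25h than in their counterparts with it. The share was 7.56, 7.79, 7.93 and 7.6% in the TCKO libraries and 8.78, 8.07, 8.81 and 8.73% in the T libraries. It was 7.01, 8.62, 7.1 and 7.71% in the CKO libraries and 9.01, 8.54, 9.41 and 9.79% in the WT libraries. Every TCKO value was below every T value. CKO replicate 2 reached into the WT range, and the other 3 CKO libraries were below it; T and WT overlapped. The means ± SD were 7.72 ± 0.172% in TCKO, 8.60 ± 0.352% in T, 7.61 ± 0.743% in CKO and 9.19 ± 0.534% in WT (n = 4 each, a description without a test). The ratio of the means was 0.898 for TCKO over T, 0.936 for T over WT, 0.828 for CKO over WT and 1.01 for TCKO over CKO. On the TPM scale the ratios were 0.95 for TCKO over T and 0.878 for T over WT, so the order of these ratios depended on whether reads were divided by length. The overlaps between groups depended on it too. By TPM the TCKO libraries, at 13.5 to 14.3%, overlapped the T libraries, at 13.6 to 15.4%. All T libraries and all CKO libraries, the latter at 13.3 to 15.2%, were then below the WT libraries, at 15.9 to 17.7%. mRNAs made up most of the mitochondrial reads, at 6.27 ± 0.145% of all reads in TCKO, 7.04 ± 0.357% in T, 6.15 ± 0.598% in CKO and 7.44 ± 0.422% in WT. The rRNAs took 1.45 ± 0.256% in TCKO, 1.56 ± 0.126% in T, 1.46 ± 0.157% in CKO and 1.74 ± 0.125% in WT, while all 22 tRNA genes together had only 345 to 1431 reads per library.

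**Figure D1:**
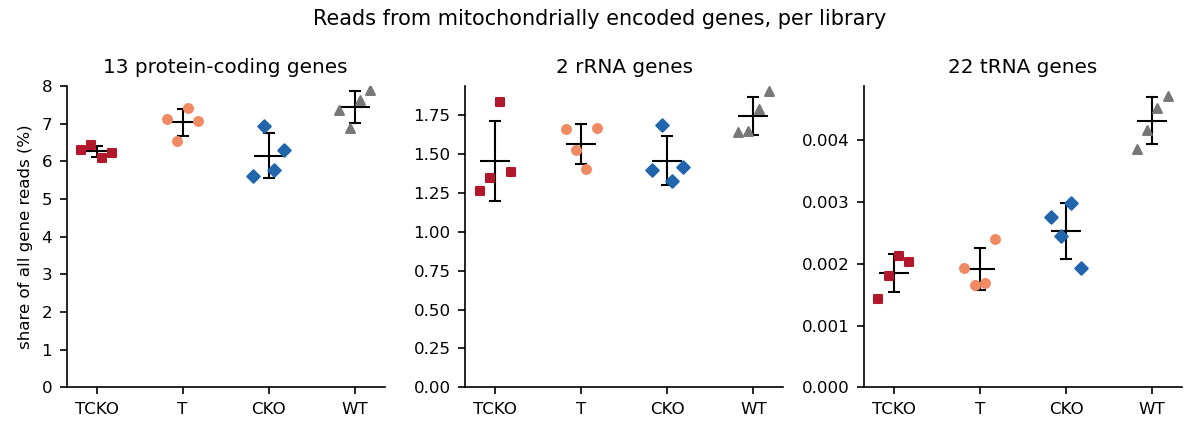
Share of all gene reads (%, y axis) from the 13 protein-coding, 2 rRNA and 22 tRNA genes of mitochondrial DNA in TCKO, T, CKO and WT libraries (x axis). Points are libraries, and bars are mean ± SD (n = 4). The WT libraries are highest in the tRNA panel with no overlap, whereas the mRNA shares of T and WT overlap.

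The transgene with Ch25h present was examined by T against WT. In this comparison 13 of the 31 mitochondrial genes that passed the filter on low counts fell and none rose: mt-Atp8, mt-Nd4l and 11 of 16 tested tRNAs. The other 11 mRNAs and both rRNAs did not pass the threshold (adjusted p under 0.05 with edgeR's quasi-likelihood test and Benjamini-Hochberg adjustment over all genes). Over all 18565 genes tested, 24.2% were called and 11.2% were called lower. Of the tested tRNAs, mt-Tc, mt-Tf, mt-Th and mt-Tt passed the filter only when the WT libraries, where they were highest, were counted in it; of these mt-Tc is among the genes called. The median log2 fold change of the 13 mRNAs was -0.13, and that of all tested genes was -0.01.

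mt-Atp8 (ENSMUSG00000064356, chrM:7766-7969, plus strand) encodes a small membrane subunit of ATP synthase. Its level was 579.7, 486, 622 and 616 CPM in T libraries and 753, 742, 783 and 838 CPM in WT libraries. The groups did not overlap, and T replicate 3 was lowest. The log2 fold change was -0.44 ± 0.11 (SE), a fold of 0.739, with adjusted p = 0.0078. Without T replicate 3 the adjusted p was 0.051. mt-Atp6, which shares bases and an mRNA with mt-Atp8, had 9171, 7487, 9169.6 and 8284 CPM in T and 7919.7, 7567, 9318 and 8682 CPM in WT libraries. These values overlapped, with a log2 fold change of 0.03 ± 0.11 (adjusted p = 0.9).

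mt-Nd4l (ENSMUSG00000065947, chrM:9877-10173, plus strand) encodes a membrane subunit of complex I. It had 211, 199.6, 253 and 242 CPM in T and 304, 279.6, 287 and 318 CPM in WT libraries. All T libraries were below all WT libraries, and the log2 fold change was -0.39 ± 0.08 (adjusted p = 0.0029). Its bicistronic partner mt-Nd4, a proton-pumping subunit of complex I, averaged 4611 ± 339.5 CPM in T and 5032 ± 349.7 CPM in WT (SD, n = 4 each), with a log2 fold change of -0.13 ± 0.09 (adjusted p = 0.35). In both bicistronic pairs, then, the shorter reading frame passed the threshold and the longer one did not; the difference between the members of a pair was not tested.

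Among the other complex I subunits, mt-Nd3 had 359, 305, 359.7 and 313 CPM in T and 365, 341, 413 and 432 CPM in WT, with a log2 fold change of -0.21 ± 0.10 (adjusted p = 0.14). For mt-Nd1 and mt-Nd2, core subunits of the membrane arm, the values were -0.15 ± 0.09 (adjusted p = 0.25) and -0.15 ± 0.09 (adjusted p = 0.25). mt-Nd5 and mt-Nd6 stood near 0 at -0.04 ± 0.12 (adjusted p = 0.84) and 0.02 ± 0.13 (adjusted p = 0.94). mt-Cytb, the cytochrome b of complex III, averaged 10468 ± 841 CPM in T and 10797 ± 802 CPM in WT, with -0.04 ± 0.10 (adjusted p = 0.79). The 3 complex IV genes, which form its catalytic core, had log2 fold changes of -0.13 ± 0.14 (adjusted p = 0.53) for mt-Co1, -0.12 ± 0.09 (adjusted p = 0.34) for mt-Co2 and -0.18 ± 0.09 (adjusted p = 0.19) for mt-Co3. For the rRNAs of the mitochondrial ribosome, mt-Rnr1 had -0.32 ± 0.14 (adjusted p = 0.11) and mt-Rnr2 -0.17 ± 0.11 (adjusted p = 0.29). All 15 of these mRNA and rRNA genes except mt-Atp6 and mt-Nd6 had a negative estimate, and only mt-Atp8 and mt-Nd4l had no overlap between T and WT, where 25.1% of all genes tested had none.

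**Figure D2:**
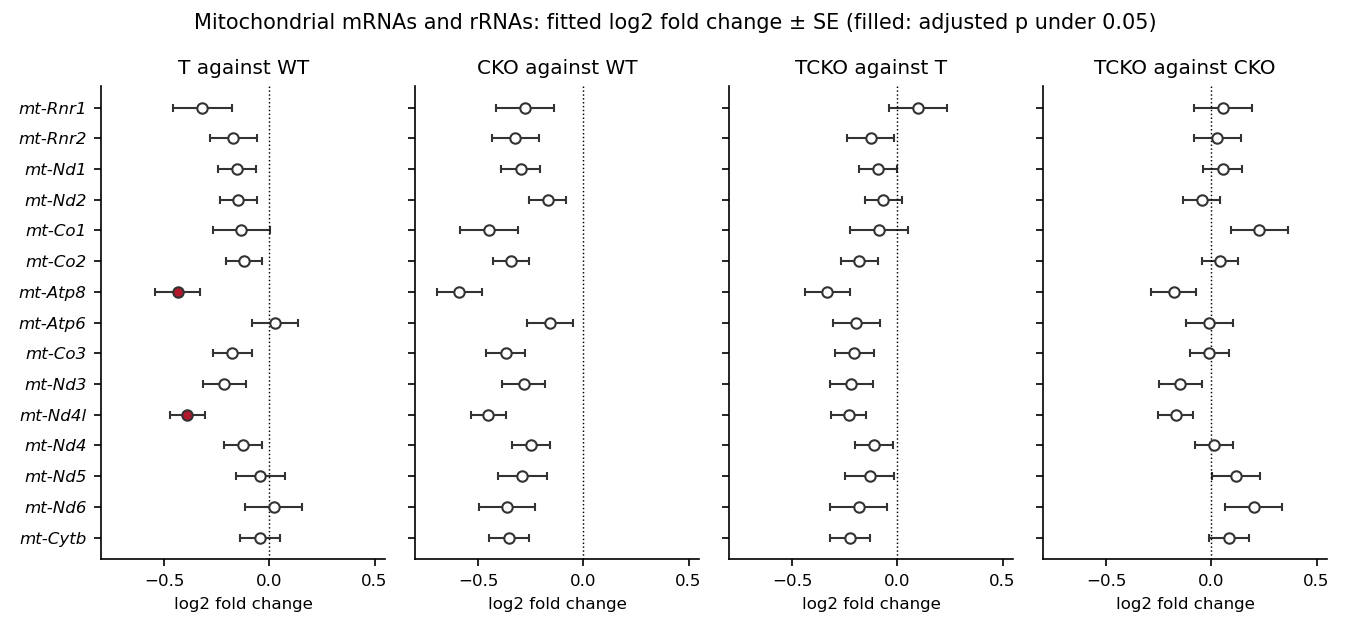
Fitted log2 fold change (x axis) of the 13 mitochondrial mRNAs and 2 rRNAs, in genome order down the page, in 4 comparisons. Bars are the standard error, and filled points have an adjusted p under 0.05. Only mt-Atp8 and mt-Nd4l in T against WT are filled, and all 15 points lie below 0 in CKO against WT.

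The lowest estimates of T against WT were those of tRNA genes. Not all tRNAs were that low, since mt-Tk, at -0.38 ± 0.44 (adjusted p = 0.58, edgeR), lay above mt-Atp8 and mt-Nd4l. The pair of tRNAs with the lowest p-values, both on the minus strand, is shown as their genes read, 5′ to 3′, with the anticodon in capitals (GENCODE M21 on GRCm38). mt-Tq (ENSMUSG00000064343, chrM:3772-3842) is the tRNA for glutamine and mt-Tp (ENSMUSG00000064372, chrM:15356-15422) the tRNA for proline.
mt-Tq: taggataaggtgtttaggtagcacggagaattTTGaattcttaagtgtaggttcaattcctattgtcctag
mt-Tp: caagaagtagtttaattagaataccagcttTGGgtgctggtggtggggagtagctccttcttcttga
mt-Tq had 6.27, 4.32, 5.18 and 6.65 CPM in T and 11.6, 13.1, 16 and 15.5 CPM in WT libraries, from 118 to 213 reads in T and 358 to 444 reads in WT. The T libraries were all lower, with a log2 fold change of -1.32 ± 0.22 (adjusted p = 0.00036). mt-Tp had 2.87, 2.53, 2.46 and 4.5 CPM in T and 6.81, 7.92, 8.35 and 9.21 CPM in WT libraries, again without overlap, with -1.38 ± 0.24 (adjusted p = 0.00052). Of the next tRNAs by mean level, mt-Tv (valine) had 2.2, 2.35, 2.14 and 3.18 CPM in T and 4.75, 5.07, 4.9 and 4.24 CPM in WT, and -0.94 ± 0.22 (adjusted p = 0.0055). mt-Ta (alanine) and mt-Tm (methionine) also fell, by log2 fold changes of -1.05 ± 0.25 (adjusted p = 0.0056) and -1.39 ± 0.35 (adjusted p = 0.0081). mt-Tl1, a tRNA for leucine, had 1.34, 0.843, 1.63 and 1.22 CPM in T and 2.13, 2.16, 1.76 and 2.9 CPM in WT; the groups did not overlap, and its log2 fold change of -0.83 ± 0.33 (adjusted p = 0.082) missed the threshold.

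The 6 further tRNAs called lower were mt-Tc, mt-Te, mt-Tg, mt-Ti, mt-Ts1 and mt-Ts2, all at 1.87 CPM or less in every library. The 12 tRNAs that passed the filter also without the WT libraries had estimates between -1.66 and -0.38, and 10 of them were called lower. The remaining 6 tRNA genes, mt-Tw, mt-Tn, mt-Ty, mt-Td, mt-Tr and mt-Tl2, were removed by the filter on low counts. Summed over all 22 genes, tRNAs stood at 15, 17.9, 20.8 and 20.5 CPM in TCKO, 19.5, 16, 17.2 and 24.2 CPM in T, 26.8, 24.3, 29.3 and 18.7 CPM in CKO and 38.5, 42.4, 46.9 and 48.4 CPM in WT libraries. Every WT library was above every library of the other groups, and the mean of each of the 22 genes was highest in WT.

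**Figure D3:**
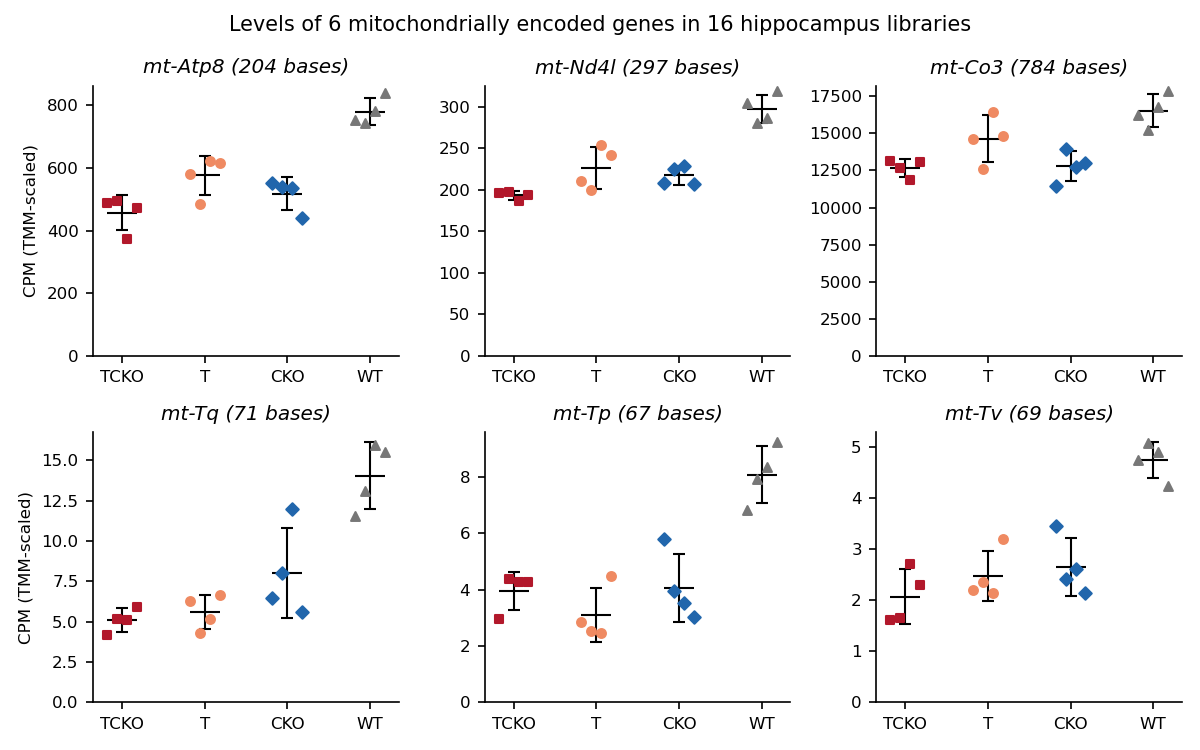
CPM (y axis, TMM-scaled) of the short mRNAs mt-Atp8 and mt-Nd4l, the longer mt-Co3 and the tRNAs mt-Tq, mt-Tp and mt-Tv in TCKO, T, CKO and WT libraries (x axis). Points are libraries and bars are mean ± SD (n = 4). Apart from mt-Co3, the WT libraries lie above all T libraries; for mt-Tq, 1 CKO library at 12 CPM lies within the WT range.

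Fragment size moved with the same groups. The median difference of length and effective length over genes above 2000 bases, which tracks a library's mean fragment length, was 174 to 180.2 bases in TCKO, 167 to 172 bases in T, 158 to 172 bases in CKO and 157 to 164 bases in WT. T and WT did not overlap in it, and the genes that fell are tRNAs and the 2 shortest mRNAs. With this difference as a covariate, chosen after seeing the data, 2 of the 13 mitochondrial calls were left, mt-Tq with -0.97 ± 0.26 (adjusted p = 0.036) and mt-Tp with -1.26 ± 0.33 (adjusted p = 0.031). mt-Atp8 then had -0.25 ± 0.14 (adjusted p = 0.31) and mt-Nd4l -0.28 ± 0.11 (adjusted p = 0.15). The same covariate gave 1187 calls over all genes, against 4490 without it. With each gene's effective length as an offset instead, also chosen after seeing the data, 12 of the 13 mitochondrial calls were left. Only mt-Ts1 was lost, and 4073 genes were called over all genes. Because T and WT did not overlap in fragment size, its part and that of the genotype cannot be told apart. CKO replicate 4, at 158 bases within the WT range, had 537 CPM of mt-Atp8, 229 CPM of mt-Nd4l and 29.3 CPM of summed tRNAs. Each was below all 4 WT libraries, while its mt-Tq, at 12 CPM, lay within the WT range of 11.6 to 16 CPM. As 1 library of another genotype, and the shallowest, it cannot separate fragment size from genotype in T against WT.

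**Figure D4:**
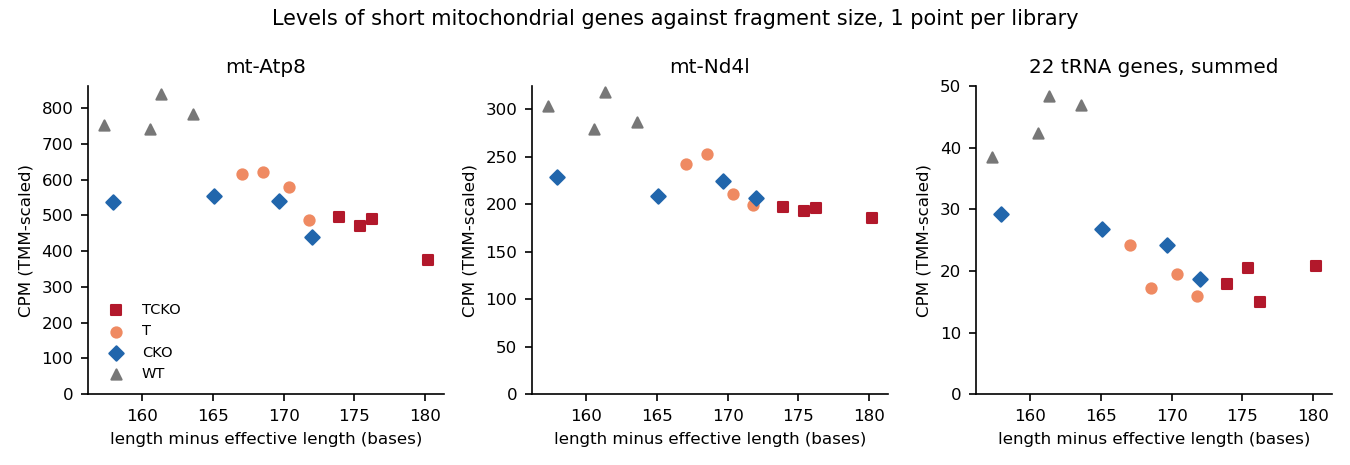
Level (CPM, y axis) of mt-Atp8, mt-Nd4l and the 22 tRNA genes summed against the library's median length minus effective length in bases (x axis), with 1 point per library and symbols for TCKO, T, CKO and WT. The WT libraries lie at 157 to 164 bases with the highest levels. CKO replicate 4, the shallowest library, lies at 158 bases and below them.

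Some cell type markers also differed between T and WT. The sum of the 10 excitatory neuron markers was 5995 to 10171 CPM in T and 10304 to 12285 CPM in WT, the 7 astrocyte markers summed to 11040.3 to 14605 CPM in T and 5733 to 6413 CPM in WT, and the 8 microglia markers to 2437 to 3281 CPM in T and 508 to 720.3 CPM in WT. None of these ranges overlapped. The sums of the inhibitory neuron, oligodendrocyte and endothelium markers did overlap between T and WT. Every marker was detected, and the part of cell composition in the mitochondrial results was not tested. With the replicate number as a block, 9 of the 13 mitochondrial calls were left, and mt-Tc, mt-Te, mt-Ts1 and mt-Ts2 were lost. Leaving out the choroid-rich T replicate 4 and WT replicate 1 also left 9, with mt-Tc, mt-Ti, mt-Ts1 and mt-Ts2 lost.

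As a share of mitochondrial reads alone, mt-Atp8 made up 0.589 ± 0.071% in TCKO, 0.668 ± 0.0341% in T, 0.70 ± 0.107% in CKO and 0.831 ± 0.022% in WT (SD, n = 4 each). mt-Nd4l made up 0.263 ± 0.0194% in T and 0.317 ± 0.0185% in WT. For these 2 genes the T values were all below the WT values, and for mt-Cytb they were all above, at 12.2 ± 0.205% in T and 11.5 ± 0.0777% in WT. The other 12 mRNA and rRNA genes overlapped between T and WT in this share. mt-Co1 took 16 ± 0.42% in T and 16.1 ± 0.246% in WT, and mt-Co3 17 ± 0.938% in T and 17.6 ± 0.379% in WT.

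Loss of Ch25h without the transgene was examined by CKO against WT. No mitochondrial gene passed the threshold in edgeR's quasi-likelihood test, although all 31 estimates were negative. Of the 31, 21 had an unadjusted p under 0.05, as had 2098 of the 18565 genes tested (11.3%). mt-Tc, mt-Tf, mt-Th and mt-Tt passed the filter only through WT, which favours a negative sign for them in advance. Both mt-Tc and mt-Th are among the 21. Over all genes tested, 0.0108% were called, that is 2 genes, and the smallest adjusted p of a mitochondrial gene was 0.12. The DESeq2 Wald test called 7 mitochondrial genes lower, namely mt-Atp8, mt-Nd4l, mt-Co2, mt-Co3, mt-Tp, mt-Tq and mt-Tv, among 114 calls over all genes. CKO and WT libraries did not overlap for 13 of the 31 genes, all lower in CKO, where 8.94% of all genes tested did not overlap and 4.06% did so on the lower side; mt-Tc, which passed the filter only through WT, is 1 of the 13. The median log2 fold change of the 13 mRNAs was -0.34, and that of all tested genes was -0.01.

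Among the mRNAs mt-Atp8 had the lowest estimate. It had 553, 540.5, 537 and 439.5 CPM in CKO libraries, all below the WT values given above, with a log2 fold change of -0.59 ± 0.11 (adjusted p = 0.12). mt-Nd4l had 209, 224, 229 and 207 CPM in CKO libraries, also all below WT, with -0.45 ± 0.08 (adjusted p = 0.12). For the 3 complex IV genes the CKO libraries lay below the WT libraries too. mt-Co1 had 10715, 13693, 7306 and 12392 CPM in CKO and 14233, 14245, 15782 and 15973 CPM in WT, with -0.45 ± 0.14 (adjusted p = 0.31); CKO replicate 4, the shallowest library, was far below the rest of its group. mt-Co2 had 4654, 5733, 5278 and 5062 CPM in CKO and 6356, 6119.9, 6943 and 6889 CPM in WT, with -0.34 ± 0.09 (adjusted p = 0.23). mt-Co3 had 11479.9, 13932, 12713 and 13018 CPM in CKO and 16221, 15212, 16789 and 17873 CPM in WT, with -0.37 ± 0.09 (adjusted p = 0.23). mt-Cytb was the 6th mRNA without overlap, at 7599 to 9558 CPM in CKO and 9969 to 11672 CPM in WT, with -0.35 ± 0.10 (adjusted p = 0.27).

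For the other 7 mRNAs CKO replicate 2 was the highest CKO library and lay within the WT range. It had 6034 CPM of mt-Nd1, while the other CKO libraries had 4718, 5174 and 5095 CPM and the WT libraries 5912 to 6774 CPM. The estimates were -0.30 ± 0.09 (adjusted p = 0.31) for mt-Nd1, -0.17 ± 0.09 (adjusted p = 0.49) for mt-Nd2, -0.28 ± 0.10 (adjusted p = 0.36) for mt-Nd3, -0.25 ± 0.09 (adjusted p = 0.36) for mt-Nd4 and -0.29 ± 0.12 (adjusted p = 0.38) for mt-Nd5. mt-Nd6 had 395, 482, 286 and 368 CPM in CKO and 527, 456, 463 and 522 CPM in WT, with -0.36 ± 0.14 (adjusted p = 0.37), and CKO replicate 4 was lowest here as well. mt-Atp6 was the mRNA nearest to 0, with -0.16 ± 0.11 (adjusted p = 0.62). The rRNAs had -0.28 ± 0.14 (adjusted p = 0.47) for mt-Rnr1 and -0.33 ± 0.11 (adjusted p = 0.34) for mt-Rnr2.

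Of the tRNAs, mt-Tp had 5.78, 3.97, 3.51 and 3.01 CPM in CKO libraries, all below WT, and a log2 fold change of -0.99 ± 0.24 (adjusted p = 0.2). mt-Tq had 6.47, 8.02, 12 and 5.62 CPM in CKO; replicate 4 was within the WT range, and the estimate was -0.82 ± 0.22 (adjusted p = 0.27). mt-Tv, mt-Ta and mt-Tm showed no overlap and estimates of -0.84 ± 0.22 (adjusted p = 0.27), -0.89 ± 0.25 (adjusted p = 0.28) and -1.08 ± 0.35 (adjusted p = 0.33). The 12 tRNAs that passed the filter also without the WT libraries had estimates between -1.11 and -0.06. Within mitochondrial reads, the share of mt-Nd2 was above WT in every CKO library, at 2.58 ± 0.0554% in CKO and 2.3 ± 0.0447% in WT, and so was that of mt-Nd4, at 5.68 ± 0.168% in CKO and 5.36 ± 0.0463% in WT. The excitatory neuron markers, at 12510.0 to 13709 CPM in CKO and 10304 to 12285 CPM in WT, did not overlap either. Nor did the astrocyte markers, at 4903 to 5450.4 CPM in CKO and 5733 to 6413 CPM in WT. The part of these markers was not tested. In fragment size, CKO replicates 1, 2 and 5, at 165, 169.7 and 172 bases, lay above all WT libraries, at 157 to 164 bases. CKO replicate 4, at 158 bases, lay within the WT range. With the fragment size covariate no mitochondrial gene was called. By edgeR, 18 of the 31 then had an unadjusted p under 0.05, as had 7.18% of all genes tested.

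Loss of Ch25h in transgenic mice was examined by TCKO against T. No mitochondrial gene passed the threshold in edgeR's quasi-likelihood test, where 12.9% of all genes did (4.81% higher and 8.05% lower). Of the 31, 5 had an unadjusted p under 0.05, against 5200 of the 18565 genes tested. DESeq2 called mt-Atp8 and mt-Nd4l lower, where it called 16.4% of all genes tested, 10.1% lower. All 13 mRNA estimates were negative, with a median of -0.18 on the log2 scale against 0.02 for all tested genes. mt-Atp8 came nearest to the threshold, with 489, 495, 374 and 471 CPM in TCKO libraries and 579.7, 486, 622 and 616 CPM in T libraries. T replicate 3 lay within the TCKO range, and the log2 fold change was -0.33 ± 0.11 (adjusted p = 0.051). Without T replicate 3 it was -0.42 ± 0.11 (adjusted p = 0.028), and the call was also made without TCKO replicate 3 and without CKO replicate 5.

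mt-Nd4l had 196, 197, 186 and 193 CPM in TCKO and 211, 199.6, 253 and 242 CPM in T. It was the 1 mitochondrial gene without overlap between these groups, where 14.8% of all genes had none (9.65% on the lower side), and its log2 fold change was -0.23 ± 0.08 (adjusted p = 0.079). Without T replicate 3 this became -0.30 ± 0.09 (adjusted p = 0.04). With the fragment size covariate the estimates were -0.18 ± 0.12 (adjusted p = 0.41) for mt-Atp8 and -0.14 ± 0.10 (adjusted p = 0.43) for mt-Nd4l. Fragment size did not overlap between TCKO, at 174 to 180.2 bases, and T, at 167 to 172 bases. Its part and that of the genotype cannot be told apart here either. Among the longer mRNAs, mt-Cytb had 9503, 9403, 7925 and 8992 CPM in TCKO and 10890.4, 9214, 10987 and 10782 CPM in T, with -0.23 ± 0.10 (adjusted p = 0.13). mt-Co3 had 13150.2, 12673, 11848 and 13089 CPM in TCKO and 14602, 12591, 16466 and 14857 CPM in T, with -0.21 ± 0.09 (adjusted p = 0.16). For both genes T replicate 3 was the lowest T library and lay within the TCKO range.

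The other complex IV mRNAs had -0.09 ± 0.14 (adjusted p = 0.73) for mt-Co1 and -0.18 ± 0.09 (adjusted p = 0.18) for mt-Co2, and mt-Atp6 had -0.20 ± 0.11 (adjusted p = 0.27). Complex I mRNAs ranged from -0.22 ± 0.10 (adjusted p = 0.17) for mt-Nd3 to -0.07 ± 0.09 (adjusted p = 0.67) for mt-Nd2, leaving mt-Nd4l aside. mt-Nd6 had -0.18 ± 0.13 (adjusted p = 0.4). The rRNAs differed in sign, with 0.10 ± 0.14 (adjusted p = 0.7) for mt-Rnr1 and -0.13 ± 0.11 (adjusted p = 0.49) for mt-Rnr2. TCKO replicate 4 carried the most rRNA of its group: mt-Rnr2 had 11552, 11744, 15514 and 12055 CPM in TCKO and 14932, 12918, 12861 and 14847 CPM in T. Of the 16 tested tRNAs 12 had a negative estimate, with a median of -0.14; mt-Tq had -0.14 ± 0.22 (adjusted p = 0.74) and mt-Tp 0.36 ± 0.24 (adjusted p = 0.35). The excitatory neuron markers summed to 9981 to 14195 CPM in TCKO and 5995 to 10171 CPM in T, the astrocyte markers to 5564 to 8657 CPM in TCKO and 11040.3 to 14605 CPM in T, and the microglia markers to 726 to 1247 CPM in TCKO and 2437 to 3281 CPM in T; their part was not tested.

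The transgene without Ch25h was examined by TCKO against CKO. No mitochondrial gene passed the threshold, by edgeR or by DESeq2, and 3 of the 31 had an unadjusted p under 0.05 in edgeR, against 3240 of the 18565 genes tested; 0.539% of all genes tested were called. The 13 mRNAs were split, with 6 negative and 7 positive estimates around a median of 0.01; other scalings of the libraries gave 4 to 7 negative estimates and medians between -0.02 and 0.03. mt-Co1 had 13042, 12512, 12805 and 13303 CPM in TCKO against the CKO values above, with 0.23 ± 0.14 (adjusted p = 0.41). mt-Atp8 had -0.18 ± 0.11 (adjusted p = 0.41). mt-Nd4l, at 186 to 197 CPM in TCKO and 207 to 229 CPM in CKO, was 1 of 2 mitochondrial genes without overlap, where 10.3% of all genes had none (4.93% on the lower side), and had -0.17 ± 0.08 (adjusted p = 0.31). mt-Tq had the smallest adjusted p of the comparison, with 4.16, 5.2, 5.12 and 5.93 CPM in TCKO and 6.47, 8.02, 12 and 5.62 CPM in CKO and a log2 fold change of -0.64 ± 0.22 (adjusted p = 0.15). mt-Tp had -0.04 ± 0.24 (adjusted p = 0.95), mt-Nd6 0.20 ± 0.13 (adjusted p = 0.47) and mt-Cytb 0.08 ± 0.10 (adjusted p = 0.7). The other mRNAs and both rRNAs had estimates between -0.15 for mt-Nd3 and 0.12 for mt-Nd5. Within mitochondrial reads, the shares of mt-Nd2, mt-Nd3 and mt-Nd4l were below CKO in every TCKO library, with mt-Nd3 at 0.37 ± 0.025% in TCKO and 0.427 ± 0.0356% in CKO. TCKO and CKO libraries did not overlap in 4 sets of markers. The oligodendrocyte markers stood at 13637 to 17909 CPM in TCKO and 5355 to 8986 CPM in CKO. The microglia markers stood at 726 to 1247 CPM in TCKO and 583 to 619 CPM in CKO. For the astrocyte markers it was 5564 to 8657 CPM in TCKO and 4903 to 5450.4 CPM in CKO. For the choroid plexus markers it was 439 to 1196 CPM in TCKO and 237 to 423 CPM in CKO. Nor did the TCKO and CKO libraries overlap in the fragment size measure, at 174 to 180.2 bases in TCKO and 158 to 172 bases in CKO. The part of the markers and of fragment size in the comparison was not tested.

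Whether the transgene acted differently without Ch25h was tested by the interaction, the log2 fold change of TCKO against CKO minus that of T against WT. mt-Tp, 1 of the 31 mitochondrial genes tested, passed the threshold, where 3.15% of all genes did (0.695% higher and 2.45% lower). Its level was 2.95, 4.37, 4.26 and 4.25 CPM in TCKO and 5.78, 3.97, 3.51 and 3.01 CPM in CKO, and 2.87, 2.53, 2.46 and 4.5 CPM in T and 6.81, 7.92, 8.35 and 9.21 CPM in WT. The T libraries were below the WT libraries and the TCKO libraries overlapped the CKO libraries, which gave an interaction of 1.35 ± 0.33 (adjusted p = 0.036). With the replicate number as a block it was 1.38 ± 0.36 (adjusted p = 0.052), and the call was lost when any 1 of 12 of the 16 libraries was left out. Of the 13 mRNAs, 12 had a positive interaction, with a median of 0.16, and none passed, while 4 of the 31 mitochondrial genes had an unadjusted p under 0.05, against 3486 of the 18565 genes tested. The largest mRNA estimate was 0.36 ± 0.19 (adjusted p = 0.33) for mt-Co1; mt-Rnr1 had 0.37 ± 0.20 (adjusted p = 0.32), mt-Atp8 0.26 ± 0.15 (adjusted p = 0.39) and mt-Nd4l 0.22 ± 0.12 (adjusted p = 0.33).

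Nuclear DNA holds copies of mitochondrial sequence, and a read that matches both places can be assigned to either, so the counts of such pairs are uncertain. In the annotation, 17 nuclear transcripts aligned to 11 of the mitochondrial genes with at least 90% identity over at least 100 bases. Of these, 7 were at least 99% identical over at least 200 bases, and all of them lay in 1 block on chromosome 1 (chr1:24611535-24616197, minus strand, GRCm38). They are Gm10925 (copy of mt-Atp6), Gm29216 (mt-Co1), Gm28661 (mt-Co2), Gm28437 (mt-Co3), Gm28438 (mt-Nd3), Gm28439 (mt-Nd4) and Gm10222 (mt-Nd4l). Without a mismatch over the aligned length were 5 of the 7, so reads within them carry nothing that tells the copy from the mitochondrial gene. Gm29216 matches the last 492 bases of mt-Co1 with 6 differences near its start, and its first 40 bases are set below those of mt-Co1 (chrM:6381-6420, plus strand, and chr1:24616158-24616197, minus strand), with the differing bases in capitals.
mt-Co1 window: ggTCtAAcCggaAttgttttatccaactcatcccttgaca
Gm29216 window: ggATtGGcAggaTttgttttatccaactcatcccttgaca
Counted from 1 at the 5′ end of mt-Co1, with the mitochondrial base first, the differences are T1056A, C1057T, A1059G, A1060G, C1062A and A1066T. The only difference between mt-Nd3 and Gm28438 over 345 bases is T3C.

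The chromosome 1 copies of mt-Atp6 and the complex IV genes held a large part of the reads of each pair. Gm10925 took 37.0 to 41.8% of the reads counted for it and mt-Atp6 together, Gm29216 21.8 to 27.5% with mt-Co1, Gm28661 20.5 to 23.8% with mt-Co2 and Gm28437 12.6 to 18.7% with mt-Co3. For mt-Co3 the share at the copy was 16.9 ± 1.43% in TCKO, 16.8 ± 1.59% in T, 16.1 ± 1.79% in CKO and 13.7 ± 0.904% in WT (SD, n = 4 each). The copies of mt-Nd4l, mt-Nd3 and mt-Nd4 took 6.28 to 12.4%, 3.09 to 5.98% and 0.372 to 0.669%. Together the 7 copies held 1.28 ± 0.0747% of all reads in TCKO, 1.46 ± 0.0567% in T, 1.25 ± 0.149% in CKO and 1.42 ± 0.0806% in WT. The other 10 copies averaged 3.0 CPM or less, and 2 of them, Gm13340 (mt-Co1) and Gm13341 (mt-Co2), averaged over 1 CPM.

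With the reads of these 7 copies added to their mitochondrial genes, a step chosen after seeing the data, 13 mitochondrial genes were again called in T against WT, the same 13. mt-Nd4l with its copy had -0.41 ± 0.08 (adjusted p = 0.0021), and Gm10222 on its own was lower in T with a log2 fold change of -0.62 ± 0.18 (adjusted p = 0.02). mt-Atp6 with its copy had -0.01 ± 0.11 (adjusted p = 0.98) and mt-Co1 with its copy -0.11 ± 0.13 (adjusted p = 0.61). mt-Atp8 has no annotated copy of this kind, but the 43 bases it shares with mt-Atp6 also lie in Gm10925. Only annotated transcripts were searched, so reads of mt-Atp8 may not be free of this uncertainty. Mitochondrial genes and copies together took 9.0 ± 0.245% of reads in TCKO, 10.1 ± 0.391% in T, 8.86 ± 0.89% in CKO and 10.6 ± 0.6% in WT.

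**Figure D5:**
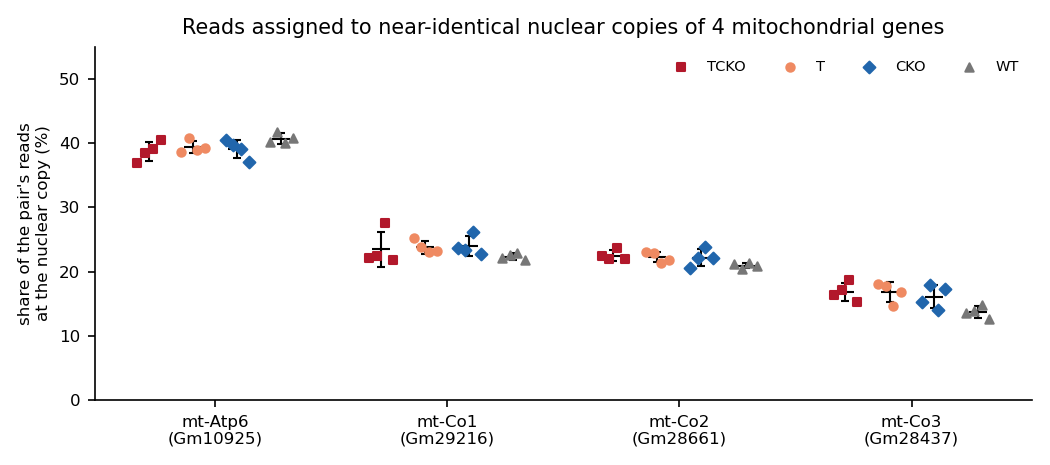
Share (%, y axis) of the reads of a mitochondrial gene and its chromosome 1 copy that was counted at the copy, for mt-Atp6, mt-Co1, mt-Co2 and mt-Co3 (x axis). Points are TCKO, T, CKO and WT libraries, and bars are mean ± SD (n = 4). The shares lie between 37.0 and 41.8% for mt-Atp6 and between 12.6 and 27.5% for the complex IV genes in all 4 groups.

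Nuclear genes of the same complexes also fell in T against WT. They and the genes below come from selected lists of each pathway's members, which are not complete. Of 39 nuclear-encoded subunits of complexes I to IV and ATP synthase, 23 were called lower and none higher, where 11.2% of all genes tested were called lower, with a median log2 fold change of -0.29. With the replicate block 11 were called, without the choroid-rich libraries 7 and with the fragment size covariate 2. The calls over all genes, 4490 in the fit without these changes, then came to 3411, 2696 and 1187. In complex I 6 of the 7 listed nuclear subunits fell, led by the NADH-binding subunit Ndufv1 at -0.44 ± 0.08 (adjusted p = 0.00057), then Ndufs7 at -0.35 ± 0.08 (adjusted p = 0.0034) and Ndufs8 at -0.32 ± 0.08 (adjusted p = 0.0092). In complex III 4 of 9 fell, among them Uqcr11 at -0.40 ± 0.10 (adjusted p = 0.0073) and the core subunit Uqcrc2 at -0.37 ± 0.09 (adjusted p = 0.0081). In complex IV 5 of 11 fell, with Cox6b1 at -0.30 ± 0.08 (adjusted p = 0.0088) and Cox4i1 at -0.26 ± 0.07 (adjusted p = 0.013). Of 8 ATP synthase subunits 5 fell, with the catalytic-head subunits Atp5a1 at -0.50 ± 0.09 (adjusted p = 0.00058) and Atp5b at -0.40 ± 0.11 (adjusted p = 0.012). Complex II, which has no mitochondrially encoded subunit, had 3 of 4 lower, with the flavoprotein Sdha at -0.47 ± 0.13 (adjusted p = 0.012). The difference between nuclear and mitochondrial subunits was not tested.

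The 53 genes that make, handle and translate mitochondrial RNA or regulate mitochondrial biogenesis had 10 lower and 1 higher call in T against WT, that is 20.8% called, where 24.2% of all genes tested were called, 11.2% lower and 13% higher. Without the choroid-rich libraries 7 were lower and 1 higher, 15.1% of the list, against 14.4% of all genes. The shares called in either direction lie near those of all genes; by direction, 18.9% of the list was called lower and 1.89% higher in the fit with all libraries. None of 14 genes of mitochondrial DNA transcription and replication passed the threshold in T against WT by edgeR or DESeq2, with 5 of 14 at an unadjusted p under 0.05 in edgeR, where 35.7% of all genes had one, and a median of -0.20. Of 19 genes of mitochondrial RNA processing and stability, 5 fell and 1 rose. Fastkd5, which is needed in human cells for cutting out mRNAs that no tRNA flanks, fell by 0.88 ± 0.16 (adjusted p = 0.00071) on the log2 scale. The pentatricopeptide repeat protein Ptcd1 had -0.55 ± 0.12 (adjusted p = 0.0039), and Fastkd1 had -0.55 ± 0.12 (adjusted p = 0.0042); the oligoribonuclease Rexo2 rose by 0.32 ± 0.09 (adjusted p = 0.016). Of 12 translation factors 3 fell, among them the release factor Mtrf1 at -0.58 ± 0.15 (adjusted p = 0.011) and the elongation factor Tufm at -0.28 ± 0.07 (adjusted p = 0.013). Of 8 biogenesis regulators the transcription factor Nrf1 and the coactivator Ppargc1b fell, by log2 fold changes of -0.33 ± 0.10 (adjusted p = 0.027) and -0.52 ± 0.16 (adjusted p = 0.029).

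In CKO against WT none of these 92 genes passed the threshold by edgeR. Its unadjusted p was under 0.05 for 17 of the 39 subunits (43.6%) and 4 of the other 53 genes (7.55%). Over all genes tested that share was 11.3%. DESeq2 called 2 subunits lower (5.13%), where it called 0.318% of all genes tested lower. In TCKO against T, where the mitochondrial mRNA estimates were all negative, 3 nuclear subunits rose: Atp5b at 0.40 ± 0.11 (adjusted p = 0.023), Atp5a1 at 0.31 ± 0.09 (adjusted p = 0.026) and Ndufv1 at 0.31 ± 0.08 (adjusted p = 0.013). The RNA-binding protein Fastk and Prorp, the nuclease subunit of mitochondrial RNase P, rose too, at 0.36 ± 0.10 (adjusted p = 0.025) and 0.42 ± 0.13 (adjusted p = 0.04). These 5 of the 92 genes are 5.43%, near the 4.81% of all genes tested that were called higher. Without the choroid-rich libraries 1 of the 92 genes was called, in complex I. In TCKO against CKO none of the 92 was called by either tool, with 15 at an unadjusted p under 0.05 in edgeR, or 16.3%, where 17.5% of all genes had one. The interaction was positive and past the threshold for 4 nuclear subunits, Ndufv1, Uqcrc1, Atp5a1 and Atp5b, between 0.48 ± 0.11 and 0.68 ± 0.15 on the log2 scale, with adjusted p between 0.02 and 0.024. Over all genes tested 0.695% were called higher in the interaction; without the choroid-rich libraries 1 of the 39 subunits was called.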

How the data were processed

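RNA of the right hippocampus of female mice was sequenced in 16 libraries of 4 groups, per the labels' protocols, from oligo-dT-primed cDNA (SMARTer Ultra Low kit). Estimated counts per gene, with 74.5% of nonzero values whole, and TPM with effective lengths were deposited by the authors, per the file headers. The submitters' processing notes name bcl2fastq, STAR 2.5.1a, Subread and featureCounts 1.4.6-p5 with build GRCm38, without saying which step gave these values. Annotation, estimation method and strand setting: not given in the sources used here.

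In the count table were 55774 lines, of which 287 repeated a gene and were dropped, leaving 55487 genes. Its 887792 values equalled those in the authors' per-sample files within 0.01. The estimated counts were rounded to whole numbers. With R 4.3.3, edgeR 4.0.16 (filterByExpr, TMM, quasi-likelihood F-test) was fitted to all 16 libraries with 1 coefficient per group, and p-values were adjusted by Benjamini-Hochberg over all 18565 genes that passed the filter, with a threshold of 0.05. Of the 37 mitochondrial genes 31 passed; the other 6, all tRNAs, were not tested. A gene that passes a filter on low counts may do so through the group in which it is high. Standard errors are those of the fitted log2 fold change. Shares of reads have no test. The script was tested on simulated data.

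Copies of mitochondrial genes among nuclear transcripts were found with BLAST 2.17.0 in the GENCODE M21 transcripts. Sequences were read from the same transcripts. The alternatives were other scalings (RLE, upper quartile, totals), other filters, DESeq2 1.42.0, limma 3.58.1 (voom), the 8 compared libraries alone, a replicate block, thinning to 15064258 reads, leaving out each library and leaving out the choroid-rich libraries. Adding the copies' reads, fragment size as a covariate and effective length as an offset were chosen after seeing the data.

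Replicate numbers are shared across groups in the labels. Deviations from the group means of same-numbered T and WT libraries correlated at 0.12, 0.14 and 0.30 over their 3 pairs, all above 0.1. A pairing of T with WT by number is therefore possible but not shown. The labels state none, and differently numbered libraries were not compared. Same-numbered T and CKO libraries were also above 0.1, at 0.1007, 0.142 and 0.143. In TCKO against T, TCKO against CKO and CKO against WT at least 1 pair was below 0.1. The main fit, with 13 mitochondrial calls in T against WT, leaves such a pairing out, and the replicate block gave 9. The members, the pathway and marker lists, and the alternatives were chosen with earlier results of these data known. Every mRNA and rRNA gene was named; tRNAs were given by counts and ranges with the 6 highest named, nuclear copies over 1 CPM were named, and from each pathway list up to 3 called genes per comparison with the lowest p.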

Additional observations from a re-analysis of the deposited data

Results flagged for a closer look

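In 6 of the 88 groups of 4 libraries checked, 1 library lay far from the others relative to the range of its group; chance flags about 1 in 20 groups. mt-Rnr2 stood at 15514 CPM in TCKO replicate 4, where the other TCKO libraries had 11552 to 12055 CPM. mt-Atp8 stood at 439.5 CPM in CKO replicate 5, below the 537 to 553 CPM of the other CKO libraries. mt-Cytb stood at 9214 CPM in T replicate 3, below 10782 to 10987 CPM in the other T libraries, and the mitochondrial share of reads was also low in that library, at 8.07% against 8.73 to 8.81%. Among the tRNAs, mt-Tp stood at 2.95 CPM in TCKO replicate 2, below 4.25 to 4.37 CPM in the other TCKO libraries, and mt-Ta at 1.55 CPM in CKO replicate 2, below 2.20 to 2.29 CPM in the other CKO libraries.

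The transgene's effect on mt-Tp differed between mice without and with Ch25h by the interaction test, at 1.35 on the log2 scale (adjusted p = 0.036, edgeR). The log2 fold change was -0.04 for TCKO against CKO and -1.38 for T against WT. This is 1 of 31 mitochondrial genes tested, where 3.15% of all genes passed. The call was lost with the replicate block (adjusted p = 0.052, edgeR), with no filter on low counts, with libraries thinned to the smallest, without the choroid-rich libraries and on leaving out any 1 of 12 of the 16 libraries.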

How the results depend on the processing

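No called result changed direction under any alternative run. For T against WT, 13 mitochondrial genes were called, 8 with no filter or with at least 1 CPM in 4 libraries, 7 after thinning, 2 with the fragment size covariate and 8 to 13 leaving out 1 library; with the replicate block 9 were called, and with the effective length offset 12. Over all genes, 4490 calls became 2696 without the choroid-rich libraries, 1187 with fragment size and 2934 to 5128 leaving out 1 library. For CKO against WT, no mitochondrial gene was called except 7 by DESeq2 (0 to 0 leaving out 1 library). Over all genes, 2 calls became 114 with DESeq2, 1 with voom, the 8 libraries alone or fragment size, 0 with the replicate block, 8 without the choroid-rich libraries and 0 to 7 leaving out 1 library. For TCKO against T, no call became 1 with totals only, voom or thinning, 2 with DESeq2 or at least 1 CPM, and 0 to 2 leaving out 1 library. Over all genes, 2388 calls became 1354 with the 8 libraries alone, 1591 without the choroid-rich libraries, 1409 with fragment size and 1294 to 3278 leaving out 1 library. For TCKO against CKO, no mitochondrial gene was called in any setting (0 to 0 leaving out 1 library). Over all genes, 100 calls (0.539% of the genes tested) became 252 with no filter, 787 with DESeq2, 59 with voom, 301 with the 8 libraries alone, 5 with the replicate block, 1 with fragment size and 11 to 266 leaving out 1 library. The 1 interaction call, mt-Tp, became 0 with no filter, the replicate block, thinning or without the choroid-rich libraries, and 0 to 1 leaving out 1 library. Over all genes, 584 interaction calls became 1263 with DESeq2, 378 without the choroid-rich libraries and 298 to 1266 leaving out 1 library. The ratio of mitochondrial read shares was 0.936 for T over WT (0.878 with TPM, 0.915 to 0.957 leaving out 1 library), 0.898 for TCKO over T (0.95 with TPM, 0.88 to 0.905), 0.828 for CKO over WT (0.791 to 0.85) and 1.01 for TCKO over CKO (0.989 to 1.06). The cause of these shifts was not tested, except that thinning and leaving out libraries use fewer reads or samples.

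In the comparisons other than T against WT, at least 1 pair of same-numbered libraries did not deviate together. The replicate block changed no other mitochondrial call than the 4 tRNAs lost in T against WT and mt-Tp in the interaction. The tRNA results rest on 345 to 1431 reads per library, so their precision is limited by depth.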
